A study of Mus musculus with 8 samples.

Results

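The 2276 regions described here are H3K27me3 peaks on chromosomes 1 to 19 of wild-type mouse chondrocytes, chosen by their presence in the wild-type peak list and by the absence of any overlap, even of 1 bp, with a peak of 3 knockouts. They were 8.28% of the 27480 autosomal wild-type peaks (95% Wilson interval 7.96 to 8.61%), and they covered 1.08 of the 39.7 Mb under those peaks (2.73%). The 4 peak lists of the series hold 138214 peaks in all. H3K27me3 is histone H3 trimethylated at lysine 27. The series measured it by chromatin immunoprecipitation and sequencing with an anti-H3K27me3 antibody in chondrocytes, the cells of cartilage, kept in DMEM with 10% FBS. Its stated purpose was to compare the mark after deletion of the enzymes that write or erase it. Beside wild type there were 3 conditional knockouts (cKO, also spelled Cko in the labels), of Ezh2, Utx and Jmjd3. Each group had 1 immunoprecipitated (ChIP) library and 1 input library, which is sheared chromatin without the immunoprecipitation. Strain, age, number of animals and the Cre driver are not given in the labels. The library titles carry a different prefix for wild type, for Ezh2-cKO and for both demethylase knockouts, and differences between genotypes cannot be told apart from differences between these sets of libraries.

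Ezh2 is the catalytic subunit of Polycomb repressive complex PRC2, which places methyl groups on lysine 27 of histone H3. Utx (Kdm6a) and Jmjd3 (Kdm6b) are demethylases that take them off. The mark is known for broad domains over CpG-rich promoters of silent developmental genes, and it also occurs at low density inside and between genes. Ezh1 is a second catalytic subunit that can act in place of Ezh2.

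With 1 ChIP library per genotype there was no replicate, so no difference between genotypes was tested. Intervals are 95% Wilson intervals and cover counting error only. The ChIP libraries ranged from 25655346 to 34786292 fragments without duplicates (29222251 in wild type), and the inputs from 16599532 to 24041619. The Utx-cKO list stood apart by its length, with 48730 autosomal peaks beside 33127 in Ezh2-cKO and 26443 in Jmjd3-cKO. By the same rule, 3734 peaks (11.3%) were found in Ezh2-cKO alone, 17715 (36.4%) in Utx-cKO alone and 1652 (6.25%) in Jmjd3-cKO alone. The wild-type share thus lay between those of the Ezh2-cKO and Jmjd3-cKO lists. Without the Utx-cKO list, 4023 wild-type peaks overlapped no peak of the other knockouts. The peak lists do not check the cell type. Wild-type peaks lay within 2 kb of an end of 63.97% of all autosomal protein-coding genes. They lay there at 19 of 22 chondrocyte, 13 of 14 housekeeping, 82 of 91 ribosomal protein and 29 of 39 Hox genes. The numbers were 11 of 35 for transcription factors of other lineages and 1 of 10 for muscle markers. For endothelial, blood and adipocyte markers they were 1 of 11, 3 of 13 and 4 of 8. Peaks at most housekeeping and ribosomal protein genes are unlike the usual place of the mark described above. The name H3K27me3 is that of the antibody, and whether these peaks carry the mark was not tested. A peak is not read here as a silent gene.

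The wild-type-alone peaks seldom lay over a gene start, and 23 of the 2276 touched a promoter window. The sequences below are those of the windows, and the sequences of the peaks were not read. Promoter windows ran from 250 bases before to 50 bases after a RefSeq gene start (GRCm38.p6). The peaks touched 24 of 31396 such windows, which belong to 23 genes, 9 of them protein-coding and the rest long noncoding RNAs. No other peak of any list touched these 24 windows. The windows of the 4 protein-coding genes with the highest fold enrichment of their peak are given 5′ to 3′ along the gene, with every CG dinucleotide, the letters that PRC2-marked promoters are usually rich in, in capitals.
Scg5 (chr2:113829042-113829341, minus strand): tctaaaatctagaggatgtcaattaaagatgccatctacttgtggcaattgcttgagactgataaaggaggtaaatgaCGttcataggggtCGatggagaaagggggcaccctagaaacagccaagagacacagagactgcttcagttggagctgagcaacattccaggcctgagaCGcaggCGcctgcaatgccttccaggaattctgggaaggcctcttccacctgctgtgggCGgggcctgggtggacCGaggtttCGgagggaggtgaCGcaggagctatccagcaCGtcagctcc
Ccdc60 (chr5:116288936-116289235, minus strand): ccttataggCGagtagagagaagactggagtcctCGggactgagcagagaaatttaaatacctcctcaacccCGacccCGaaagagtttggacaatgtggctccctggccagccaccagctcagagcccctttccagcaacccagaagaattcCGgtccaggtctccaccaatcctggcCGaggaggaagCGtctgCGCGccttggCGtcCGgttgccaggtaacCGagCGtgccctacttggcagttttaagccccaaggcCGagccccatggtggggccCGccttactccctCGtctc
Gpm6a (chr8:54954478-54954777, plus strand): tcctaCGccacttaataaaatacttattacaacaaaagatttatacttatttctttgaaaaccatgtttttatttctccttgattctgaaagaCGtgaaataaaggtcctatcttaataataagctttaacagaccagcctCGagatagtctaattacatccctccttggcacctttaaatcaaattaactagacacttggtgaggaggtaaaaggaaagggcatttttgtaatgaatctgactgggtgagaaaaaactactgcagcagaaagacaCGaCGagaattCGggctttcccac
Arhgef3 (chr14:27361139-27361438, plus strand): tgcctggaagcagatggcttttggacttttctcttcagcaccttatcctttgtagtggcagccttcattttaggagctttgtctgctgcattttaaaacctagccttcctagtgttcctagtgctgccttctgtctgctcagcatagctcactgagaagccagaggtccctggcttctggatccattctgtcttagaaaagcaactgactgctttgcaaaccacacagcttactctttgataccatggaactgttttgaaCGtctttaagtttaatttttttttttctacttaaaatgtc
Scg5 encodes 7B2, the chaperone of a prohormone convertase, and its window holds 9 CG dinucleotides. The Ccdc60 window holds 16, but its peak ends at chr5:116289015, so most of that sequence lies outside the peak. Gpm6a, which encodes a neuronal membrane glycoprotein, has 6. Its peak covers only the edge of the window, from chr8:54954747 to the window's end at 54954777, so most of that sequence lies outside the peak. The window of Arhgef3, which encodes an activator of the GTPase RhoA, has 1. The peaks at Scg5 and Arhgef3 cover the whole of their windows.

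Over the 24 windows the median number of CG dinucleotides was 4.5 and the median GC content was 48.2%. These and the following values are of whole windows, some of which a peak touched only at an edge. The 13699 windows touched by other wild-type peaks had medians of 22 and 62.3%, and those touched by other peaks of the lowest quartile of fold enrichment had 8 and 57.3%. The 15718 windows that no peak of any list touched had medians of 3 and 47.0%. The sets differ in kind of gene, with 37.5% protein-coding windows among the 24 against 86.4% and 69.7% of the marked sets and 45.0% of the unmarked. Over the 9 protein-coding windows alone the median was 9 CG dinucleotides, the same as for the protein-coding windows of the lowest quartile (9) and fewer than under all other wild-type peaks (22). Both strands were searched for 3 motifs, of which none overlaps another in its letters. The TATA box TATAAA was found in 4 of the 24 windows (16.7%), against 13.6% of all windows. The GC box GGGCGG was found in 3 (12.5%), against 36.0% of all windows, and CCAAT in 6 (25%), against 37.3%. The other protein-coding genes were Cntn6, an adhesion molecule of neurons, Fam162b, Nme8, Col6a5, a chain of collagen VI, and Fer, a tyrosine kinase. Their fold enrichments ran from 2.38 at Fer to 2.85 at Cntn6.

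Of 919 autosomal microRNA hairpins, 147 lay under other wild-type peaks and 1 lay under a wild-type-alone peak. That one is shown for its seed (bases 2 to 8, in capitals), the part of a microRNA that pairs with its targets. Its peak at chr1:84218546-84219138 had a fold enrichment of 3.12, and the nearest knockout peak was 34.97 kb away.
mmu-miR-6353 (chr1:84218926-84218948, minus strand): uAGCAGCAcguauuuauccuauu

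The peaks found in wild type alone were weak and short. Strength is given as the fold enrichment of the peak over the local input and as −log10 of the q-value, both the authors' values per peak. Fold enrichment had a median of 2.73 (quartiles 2.62 and 2.89, range 2.18 to 4.43), beside a median of 3.60 for the other 25204 autosomal wild-type peaks. The median −log10 q was 1.93 against 6.45, where the list begins at a q of 0.05. The median length was 375 bp (quartiles 282 and 587 bp, range 228 to 2218 bp) against 1097 bp. The lower limit of 228 bp equals the fragment length in the header of the wild-type list. These values come from the calls that chose the peaks, and they describe the set without supporting it.

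A q of 0.001 or less was reached by 214 of the peaks (9.40%), against 69.5% of the others. A fold enrichment of 4 or more was reached by 3 (0.132%), against 45.1%. There were 134 peaks of 1 kb or more (5.89% against 53.5%) and 709 under 300 bp (31.2% against 6.62%). Within quartiles of the fold enrichment of all autosomal wild-type peaks, the set made up 15.9% of the lowest quartile, 16.2% of the second, 1.06% of the next and 0% of the highest. By fold enrichment alone, the share was not largest among the very weakest peaks. It was 6.84% in the lowest decile, was 24.4% in the decile between 2.66 and 2.80, and was 0 in the 3 highest deciles, where the upper Wilson bound is 0.140%. At like strength the peaks were also shorter than those that a knockout peak overlapped. Median lengths were 403 against 538 bp in the lowest quartile and 352 against 650 bp in the second. Wild-type peaks that 1 knockout list overlapped (2659) were at a median of 2.71 in fold enrichment and 437 bp in length. Those overlapped by 2 lists (3458) had 2.72 and 495 bp, and those overlapped by all 3 lists (19087) had 4.78 and 1461 bp. The median −log10 q was 1.93 for the wild-type-alone peaks, and 2.09, 2.37 and 14.3 with 1, 2 and 3 lists. In fold enrichment the wild-type-alone peaks were thus close to the peaks shared with 1 or 2 knockouts. Length and −log10 q rose with each further list.

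**Figure D1:**
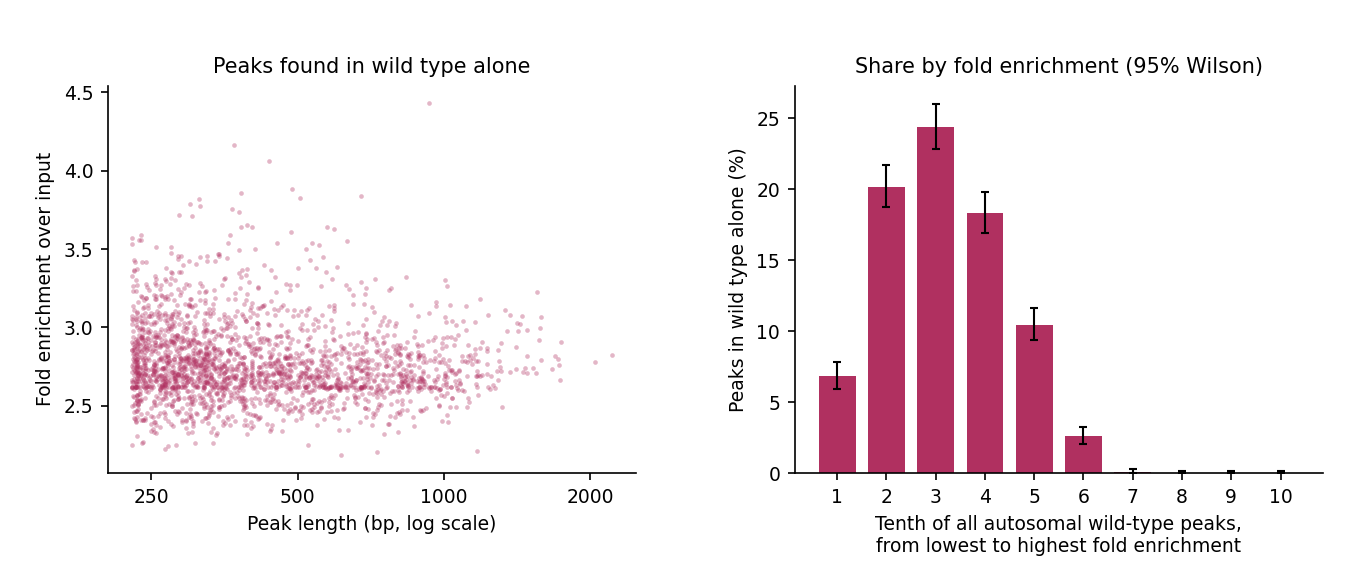
Left: each point is 1 of the 2276 wild-type-alone peaks, by length (bp, log axis) and fold enrichment over input. Right: share of wild-type-alone peaks (%) in each decile of all autosomal wild-type peaks ordered by fold enrichment, with 95% Wilson intervals. The share is highest in the third decile (24.4%) and 0 in the top 3.

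The strongest peak of the set lay outside genes at chr10:99599392-99600323, 158 kb from the end of Csl, the nearest protein-coding gene. It was 932 bp long, had a fold enrichment of 4.43 and a −log10 q of 12.4, and the nearest knockout peak was 18.8 kb away, in the Ezh2-cKO list. The next lay inside Baz2b, which encodes a bromodomain protein (chr2:60181506-60181875, fold enrichment 4.16), with the nearest knockout peak at 25.9 kb. The third, at chr1:153386367-153386803, lay in the long noncoding RNA gene Gm46246 and had 4.06. These 3 were the peaks above 4. Next in order came peaks inside Mcub, a subunit of the mitochondrial calcium channel (3.88), 46.7 kb from Klf4, a transcription factor (3.86), and inside Eps8, an actin regulator (3.84). A peak 47.0 kb from Wasf1, also an actin regulator, had 3.83.

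The eighth strongest peak, at chr11:112293369-112293681, lay 489 kb from Sox9, the master transcription factor of chondrocytes, in the long gene-poor stretch before it that is known for distant Sox9 enhancers. Its fold enrichment was 3.82. The nearest Ezh2-cKO peak was 4.99 kb away, while those of Utx-cKO and Jmjd3-cKO were 53.4 and 179 kb away. The 1.52 Mb around Sox9, between Gm11677 and Slc39a11 (chr11:111726302-113244850), held 17 wild-type peaks, and the others all overlapped a knockout peak. The remaining peaks among the 12 strongest lay inside Ppargc1a, a coactivator of mitochondrial genes (3.79), Dyrk1a, a kinase (3.78), Csgalnact1, an enzyme of chondroitin sulfate synthesis in cartilage (3.75), and Zfp438 (3.73). Except for Gm46246, each of these 12 peaks lay inside a protein-coding gene or outside any annotated gene, and none lay within 2 kb of a gene end.

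The longest peaks were not the strongest. The 6 longest measured 1718 to 2218 bp with fold enrichments of 2.67 to 2.90. They lay 10.8 kb from Nfic, 3.97 kb from Dusp8 and inside Otud7b, Vwa8, Col11a1 and Atrn. The peak near Nfic (chr10:81441656-81443873) was 320 bp from an Ezh2-cKO peak, and the one in Vwa8 (chr14:79066913-79068641) was 34.2 kb from the nearest knockout peak. Col11a1 encodes a chain of cartilage collagen XI.

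Absence of overlap did not mean a long distance. The median distance to the nearest knockout peak was 6.06 kb (quartiles 1.80 and 20.3 kb). It was 12.1 kb to the nearest Ezh2-cKO peak, 8.30 kb to Utx-cKO and 15.2 kb to Jmjd3-cKO, an order that follows the lengths of the 3 lists. A knockout peak lay within 1 kb of 359 peaks (15.8%) and within 5 kb of 1041 (45.7%). For 235 (10.3%) the distance exceeded 50 kb, and for 102 (4.48%) it exceeded 100 kb. The nearest peak belonged to Utx-cKO for 1221 (53.6%), to Ezh2-cKO for 597 (26.2%) and to Jmjd3-cKO for 458 (20.1%).

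**Figure D2:**
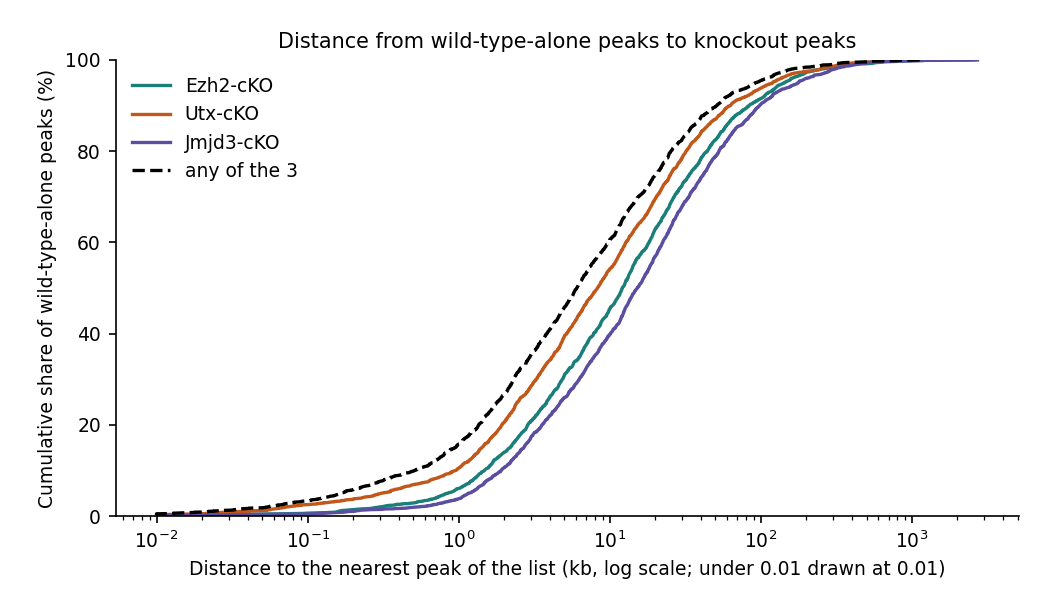
Cumulative share (%) of the 2276 wild-type-alone peaks within a given distance (kb, log axis) of the nearest peak of each knockout list and of any of the 3. The curves rise at the shortest distances for Utx-cKO (median 8.30 kb) and at the longest for Jmjd3-cKO (15.2 kb).

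At the edge of the rule, 76 peaks had a knockout peak within 100 bp, 11 of them within 10 bp. On the other side, 159 wild-type peaks counted as shared with an overlap of under 100 bp, 3 of them under 10 bp. The peaks just inside lay in Syce3 (adjacent to a Utx-cKO peak, with 0 bp between them), Fbxw11 (3 bp), Dym (3 bp), near Myh9 (4 bp), in Stard13 (6 bp) and in Jazf1 (6 bp, to an Ezh2-cKO peak). Their fold enrichments ran from 2.39 to 2.74. Those just outside lay where Cmss1 and Filip1l overlap (3 bp of overlap), 323 kb from Klf6 (5 bp), in Dipk1a (7 bp) and in Ndfip1, Cdc42 and Orai1 (10 bp each). Their fold enrichments ran from 2.26 to 2.97.

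At the far end, a few peaks stood far from any knockout peak. The most distant lay in the immunoglobulin heavy chain locus Igh at chr12:114378741-114379060, 1.16 Mb from the nearest knockout peak, with a fold enrichment of 2.80. The next lay 5.95 kb from the odorant receptor gene Olfr153 (chr2:87525953-87526226, 828 kb, fold enrichment 2.92). Another covered the start of Cntn6 (chr6:104492939-104493192, 818 kb, 2.85). These 3 peaks were 254 to 320 bp long, and the nearest other wild-type peak was itself 981 kb or more away.

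The peaks lay mainly inside genes and away from their ends. Positions are those of the peak centre relative to protein-coding genes of RefSeq GRCm38.p6, with a gene end meaning within 2 kb of either end. Centres lay at a gene end for 121 peaks (5.32%, 4.47 to 6.32%), elsewhere inside a gene for 1382 (60.7%, 58.7 to 62.7%) and outside genes for 773 (34.0%, 32.05 to 35.9%). Of the other wild-type peaks, 46.3% lay at a gene end, 35.7% elsewhere inside and 18.0% outside. Of the bases of the autosomes, 5.73% lie in the gene end windows, 36.8% elsewhere in genes and 57.4% outside. The share at gene ends was therefore close to what the windows cover, while the share inside genes was above the genes' share of bases.

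The contrast at gene ends was also present at like fold enrichment, within the lowest and the second quartile. In the lowest quartile, 5.59% (4.37 to 7.11%) of the wild-type-alone peaks and 15.1% (14.2 to 16.1%) of the others lay at a gene end, and 62.1% and 57.8% lay elsewhere inside genes. The shares at gene ends were 5.22% and 17.6% in the second quartile. In the next they were 2.74% (of 73 peaks) and 58.97%, but there the 2 sets were not of like strength. That quartile runs from 3.35 to 6.09 in fold enrichment, and 71 of the 73 peaks had 4.15 or less. The peaks found in 1 knockout list alone had a like distribution. Gene ends held 9.53% of those in Ezh2-cKO alone, 10.8% in Utx-cKO alone and 6.48% in Jmjd3-cKO alone, and the insides of genes held 56.6%, 57.1% and 62.0%. The interval for Jmjd3-cKO (5.39 to 7.77%) overlapped that of the wild-type-alone peaks.

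**Figure D3:**
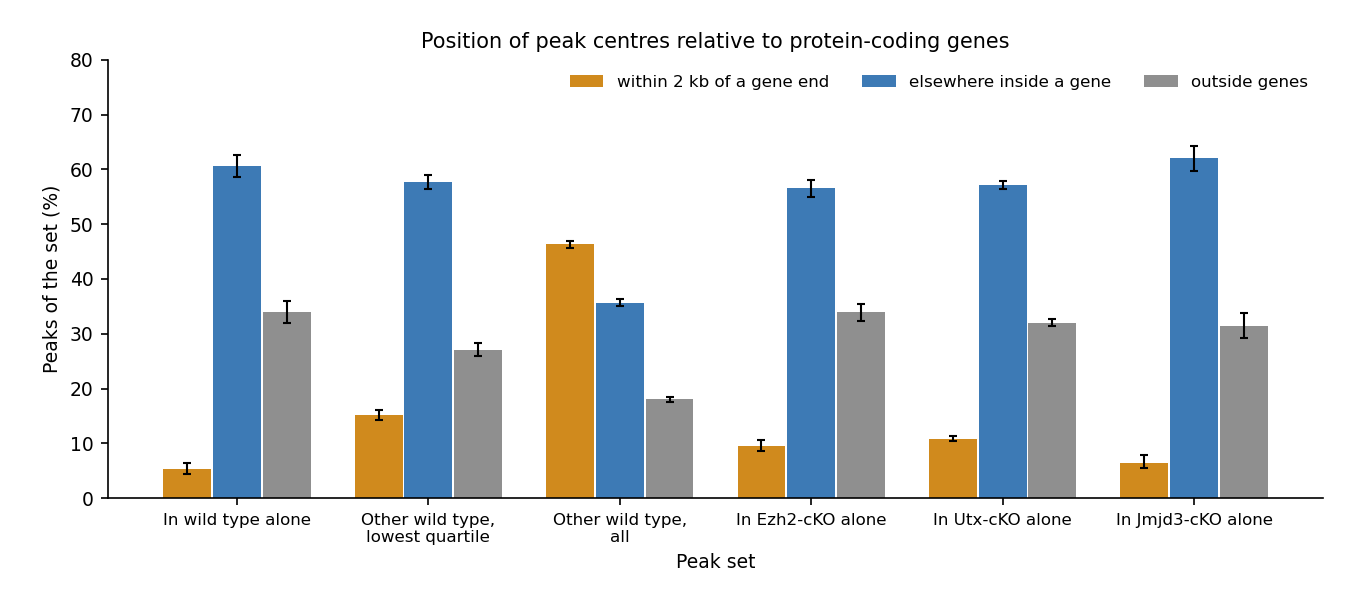
Share of peaks (%) centred within 2 kb of a protein-coding gene end, elsewhere inside a gene or outside genes, for 6 sets of autosomal peaks, with 95% Wilson intervals. Gene ends hold 5.32% of the wild-type-alone peaks and 46.3% of all other wild-type peaks.

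Gene starts alone, which the promoter table gives with strand for 18 of the 19 autosomes, lay under few of these peaks. A peak covered the nearest start in 14 of 2190 cases (0.639%, 0.381 to 1.07%). For the other wild-type peaks this was 39.7%, and for those of the lowest quartile 5.23%. It was 1.11% for peaks in Ezh2-cKO alone, 1.99% in Utx-cKO alone and 1.63% in Jmjd3-cKO alone. The median distance to the nearest start was 24.0 kb, against 3.96 kb for the other wild-type peaks and 13.5 kb for those of the lowest quartile. Starts more than 50 kb away were found for 30.3%, 14.5% and 16.97%, in the same order.

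The peaks were spread over every autosome. Their share of the wild-type peaks ran from 5.78% on chromosome 19 to 11.7% on chromosome 3 (173 of 1481), with 10.9% on chromosome 16 and 10.1% on chromosome 14. Their density ran from 0.727 per Mb to 1.09 per Mb. Of the 2109 bins of 1 Mb that held a wild-type peak, 1211 (57.4%) held at least 1 of the set, 616 held exactly 1 and 40 held 5 or more. The most in a bin was 9, at 131 to 132 Mb of chromosome 1 (of 29 wild-type peaks) and at 27 to 28 Mb of chromosome 3 (of 43). The nearest other wild-type peak was at a median of 13.995 kb, against 11.5 kb for the other wild-type peaks and 7.62 kb for those of the lowest quartile.

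A minority lay in clusters, taken as 3 or more of these peaks with gaps of at most 100 kb. There were 83 clusters with 281 peaks (12.3%, 11.1 to 13.8%), of which 63 held 3 peaks, 15 held 4, 3 held 6 and 2 held 7. Their median span was 82.8 kb. By the same definition 19.9% of the peaks in Ezh2-cKO alone, 83.2% of those in Utx-cKO alone and 8.41% of those in Jmjd3-cKO alone were clustered. These sets differ in size, and a larger set tends to have closer neighbours. The part of set size in these shares was not tested. All peaks of 33 clusters lay in 1 protein-coding gene each. Because the spans are defined by peaks without a knockout counterpart, the rule itself raises the wild-type peak numbers in them, and the numbers that follow are a description.

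The cluster with the most covered sequence of those with 7 peaks was wholly in Cald1, which encodes caldesmon, a protein that binds actin and myosin (chr6:34669373-34757236). Its span held 12 wild-type peaks, 8 of Ezh2-cKO, 7 of Utx-cKO and 5 of Jmjd3-cKO. The covered length did not follow these numbers, at 9185 bp in wild type and 9163, 12388 and 5421 bp in the knockouts of Ezh2, Utx and Jmjd3. The other cluster of 7 ran over Srgap2, a regulator of cell shape, and Fam72a (chr1:131427226-131548236), with 9 wild-type peaks against 2, 3 and 3 in the same order of knockouts. Covered length was 7387 bp against 4977, 6513 and 5039 bp.

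Among the clusters of 6, the one in Mbnl1, a regulator of alternative splicing (chr3:60525250-60604040), held 11 wild-type peaks against 6, 5 and 5 in the knockouts of Ezh2, Utx and Jmjd3. Here the covered length was also highest in wild type, at 15927 bp against 10511, 9835 and 9664 bp. The cluster at Ublcp1, Rnf145 and Ebf1, a transcription factor of B cells and stroma (chr11:44467264-44740663), held 12 wild-type peaks against 8, 10 and 7, with 17269 bp covered in wild type against 15090, 20823 and 11739 bp. The cluster at Kat6a, a histone acetyltransferase, and Ank1, an ankyrin (chr8:22863209-23062754), held 12 against 5, 9 and 4, with 8712 bp against 5202, 7822 and 3266 bp. The sixth cluster, with 4 peaks in Fndc3b (chr3:27605368-27694414), held 17 against 15, 15 and 13, with 23166 bp against 20261, 32532 and 26294 bp. In Cald1, Ebf1 and Fndc3b a knockout list thus covered more sequence than wild type.

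In 6 clusters no knockout had a peak anywhere in the span. They lay inside Kcnma1, the pore-forming subunit of a calcium-activated potassium channel (4 peaks over 150 kb, chr14:23431930-23581611), Usp6nl, which promotes GTP hydrolysis by Rab proteins (4 peaks over 19.1 kb, chr2:6325663-6344735), Colgalt2, a collagen galactosyltransferase (3), Nfx1, a zinc finger protein (3 within 6.17 kb), Col5a2, a chain of collagen V (3), and Myom1, a sarcomere protein (3). The other 7 wild-type peaks of Usp6nl all overlapped a knockout peak, as did 2 of the other 3 in Kcnma1. Usp6nl as a whole held 11 wild-type peaks beside 9, 11 and 6 in the same order of knockouts, and Kcnma1 held 7 beside 3, 3 and 2.

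**Figure D4:**
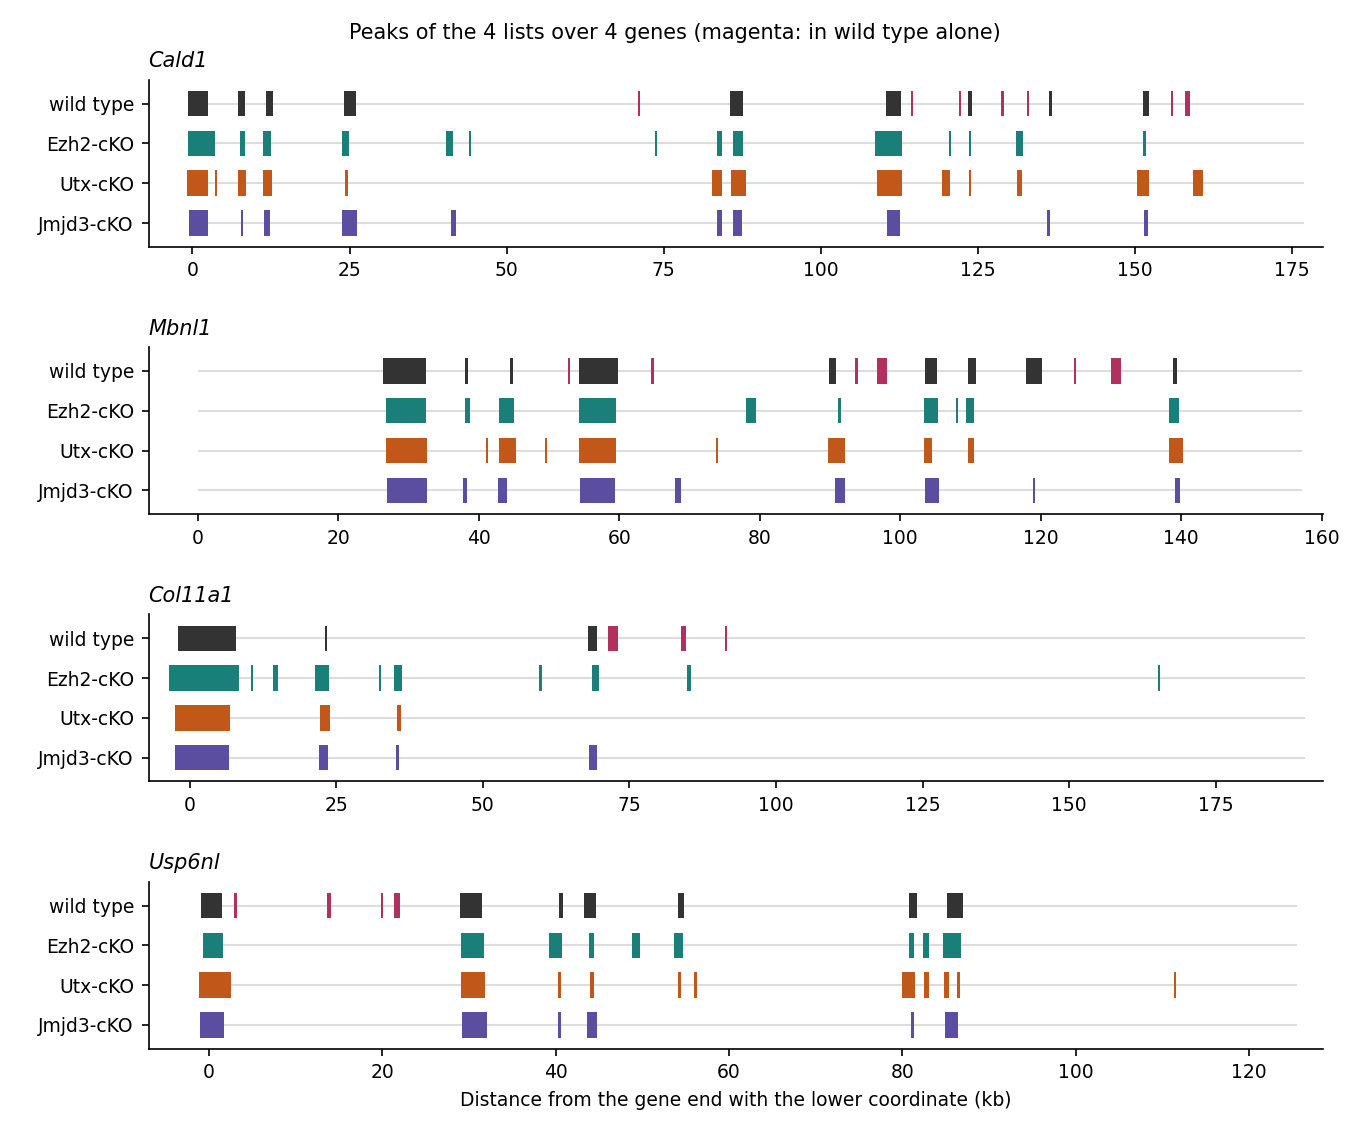
Peaks of the 4 lists along Cald1, Mbnl1, Col11a1 and Usp6nl, as distance (kb) from the gene end with the lower coordinate. Bars are peaks to scale with a minimum drawn width, and wild-type peaks that overlap no knockout peak are in magenta: 7 in Cald1, 6 in Mbnl1, 3 in Col11a1 and 4 in Usp6nl.

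Genes that held one of these peaks were long. Peak centres fell in 1177 protein-coding genes, 966 of which held 1 peak, 151 held 2, 41 held 3 and 19 held 4 or more. The median length of the 1177 genes was 92.1 kb, against 17.5 kb for all autosomal protein-coding genes and 57.1 kb for genes with another wild-type peak away from their ends. The share of genes with such a peak was larger among longer genes, from 0.436% of genes under 10 kb over 3.59%, 11.3% and 22.6% to 30.02% of those above 300 kb. Other wild-type peaks lay in 1046 of these genes (88.9%). Knockout peaks lay elsewhere in 1119 (95.1%), and 1029 (87.4%) held peaks of all 3 knockouts. Only 58 of the genes (4.93%) held no knockout peak, so in most of these genes a peak was called in all 4 genotypes. Among all 20665 autosomal protein-coding genes, 12189 held another wild-type peak. The shares with knockout peaks were not computed for all genes or for genes of like length, so they only describe these long genes.

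Cald1 held the most, 7 of its 16 wild-type peaks, with 14, 13 and 10 peaks in the knockouts of Ezh2, Utx and Jmjd3, the order kept below. Mbnl1 held 6 of 15, with 10, 10 and 9. Genes with 5 were Fndc3b, Mecom, Kcnma1, Auts2 and Pde4d. Mecom encodes a zinc finger transcription factor, Auts2 a protein of a Polycomb complex variant and Pde4d a cAMP phosphodiesterase. In Fndc3b wild type had 27 peaks and Utx-cKO 44, and in Auts2 wild type had 17 and Utx-cKO 27, so these genes held more peaks in that knockout than in wild type. In Mecom the numbers were 8 in wild type and 6, 7 and 6 in Ezh2-cKO, Utx-cKO and Jmjd3-cKO.

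Among the genes with 4 were Kat6a (8 wild-type peaks against 3, 6 and 3), Tbx15, a T-box factor of skeletal development (7 against 3, 6 and 3), and Fbxw11, a subunit of a ubiquitin ligase (8 against 4, 6 and 6). In Tbx15 the covered length was nearly the same in every list, at 21673 bp in wild type and 19768, 21665 and 20378 bp in the knockouts. The 4 wild-type-alone peaks there amounted to 2246 bp. In P4ha1, a subunit of the prolyl hydroxylase that modifies collagen, 3 of 6 wild-type peaks were found in wild type alone. With no knockout peak allowed within 5 kb, Kcnma1 held 4, Usp6nl 3, Mbnl1 2 and Tbx15 2 of these peaks, and Cald1, Fndc3b and Kat6a held 0. The genes of this and the preceding paragraph, and those at gene ends below, were chosen after their values were seen.

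**Figure D5:**
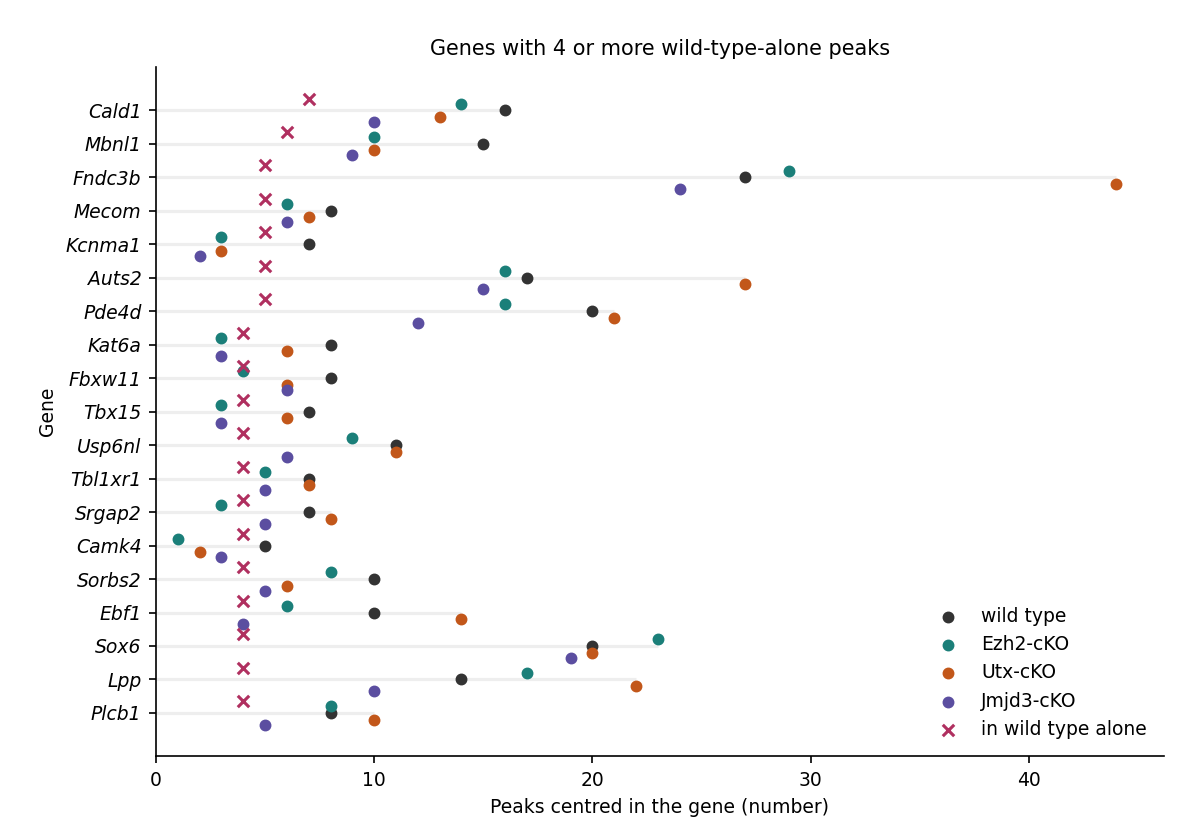
Number of peaks centred in each of the 19 genes that held 4 or more wild-type-alone peaks (crosses), beside all peaks of each list in the gene (points, shifted vertically so that they can be told apart). Wild type has more peaks than each knockout in 9 of the genes, as many as the highest knockout in 2 and fewer in 8, in genes that were selected for their wild-type-alone peaks.

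At gene ends, 145 protein-coding genes had a wild-type-alone peak within 2 kb (0.702% of 20665, and 1.10% of the 13220 with any wild-type peak there). In 84 of them another wild-type peak lay at an end as well. In the other 61 it was the sole wild-type peak, and 47 of these had no knockout peak within 2 kb of an end either. A knockout peak came within 2 kb for 5 genes in Ezh2-cKO, for 1 in Jmjd3-cKO and for 12 in Utx-cKO. Among the 61, the highest fold enrichments were at Teddm2 and Rgsl1, which share a peak at chr1:153847131-153847660 (3.43, nearest knockout peak 46.2 kb away), Hsd17b13, an enzyme of liver lipid droplets (3.42), and Scg5 (3.29). Calb2, the calcium-binding protein calretinin, had 3.23, Gpr183, an oxysterol receptor of immune cells, 3.15, and Cyp2ab1, a cytochrome P450, 3.13. None of these 7 genes had a knockout peak within 2 kb of an end.

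Hoxb2, a homeobox gene of hindbrain and axial patterning, had a peak of 279 bp at chr11:96353087-96353365 with a fold enrichment of 3.11, and the nearest knockout peak was 7.28 kb away. That peak touches the edge of the promoter window of Hoxb3os without reaching the start, and it was the sole wild-type peak at an end of Hoxb2. Foxd3, a transcription factor of neural crest, had a sole wild-type peak of 2.94, but Utx-cKO and Jmjd3-cKO had peaks within 2 kb of its ends. Car3, a carbonic anhydrase of muscle and fat, had 3.002, with Ezh2-cKO and Utx-cKO peaks there. Ezh2-cKO had no peak within 2 kb of an end of Foxd3, and Jmjd3-cKO had none at Car3.

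Among 14 gene lists, the regulators and matrix genes of chondrocytes had the highest share of genes with a wild-type-alone peak over them or within 2 kb, 9 of 22 (40.9%, 23.3 to 61.3%). Over all autosomal protein-coding genes it was 1241 of 20665 (6.01%). All 8 of the 22 genes that are longer than 50 kb were among the 9, against 851 of 4725 genes of that length (18.0%). None of the 22 had such a peak at a gene end. The list was not particular to wild type: 9 of the 22 genes also held a peak found in Ezh2-cKO alone (10.5% of all genes), 7 one in Utx-cKO alone (30.03%) and 6 one in Jmjd3-cKO alone (4.66%). Both a wild-type-alone and an Ezh2-cKO-alone peak lay at 7 of them. The 15 wild-type-alone peaks at these genes had fold enrichments of 2.38 to 3.38.

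Sox5 and Sox6, the partners of Sox9 in cartilage, held 1 and 4 of these peaks. In Sox6 the fold enrichments ran from 2.62 to 2.91, and the gene held 20 wild-type peaks (32960 bp), 23 in Ezh2-cKO (36159 bp), 20 in Utx-cKO (31081 bp) and 19 in Jmjd3-cKO (33406 bp). In Sox5 the numbers were 13, 12, 15 and 12. Trps1, a GATA-type regulator of growth plate cartilage, held 1 (2.90) among 12 wild-type peaks, with 9, 11 and 12 in the knockouts. The peak counts of these 3 regulators were close in all 4 lists.

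Of the collagens of cartilage, Col9a1 held the strongest peak of the list (chr1:24244826-24245219, 3.38, with a knockout peak 705 bp away) and a longer one of 1297 bp (2.79). Col11a1 held 3, and 2 of them were within 1.62 kb of an Ezh2-cKO peak. The gene had 6 wild-type peaks over 14627 bp, 10 in Ezh2-cKO over 19997 bp, 3 in Utx-cKO over 11768 bp and 4 in Jmjd3-cKO over 12681 bp, and 6 of the Ezh2-cKO peaks were found in that list alone. Col27a1 held 1 (2.38), 277 bp from a knockout peak. In that gene wild type had 11522 bp under peaks, Jmjd3-cKO 12287 bp, Ezh2-cKO 36117 bp and Utx-cKO 72682 bp.

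Among the proteoglycan genes, Acan, which encodes aggrecan, held 1 peak of 1026 bp (chr7:79071736-79072761, 2.49). Hapln1, the link protein that ties aggrecan to hyaluronan, held 1 of 879 bp (2.90), 284 bp from a knockout peak. Epyc, a small leucine-rich proteoglycan, had a wild-type-alone peak of 414 bp (2.72) as its sole wild-type peak, while the knockouts had 1733 bp, 1192 bp and 3009 bp under peaks in the order Ezh2-cKO, Utx-cKO and Jmjd3-cKO. Sox9 and Col2a1 held none, with 1 and 2 wild-type peaks that knockout peaks overlapped. With no knockout peak allowed within 1 kb, 5 of the 22 genes had a peak (22.7%, against 5.12% of all genes). Within 5 kb 4 had, namely Col9a1, Trps1, Col11a1 and Sox6 (18.2% against 3.20%), and with a q of 0.001 or less Col9a1 had (4.55% against 0.595%).

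The other lists held 0 to 4 such genes each, to be read against the 6.01% of all genes. In the list of hypertrophy and bone formation 2 of 16 genes had one (12.5%, 3.50 to 36.02%), Runx2, the master factor of osteoblasts (2.94), and Mef2c (2.75 and 2.79). Of 30 Wnt ligands and antagonists 0 had one (upper bound 11.4%), although 27 had another wild-type peak. Of 25 genes for TGF-beta and BMP ligands and their antagonists 4 had one (16%, 6.40 to 34.7%), namely Bmp8a (2.88), Bmp3 (2.82), Inhba (2.75) and Lefty2 (2.72), where the peak was the sole wild-type peak. Of 15 genes of the Hedgehog pathway 3 had one (20%, 7.05 to 45.2%): Gli3, its transcription factor (2.62 and 3.13), Boc, a co-receptor (2.70), and Disp1, which releases the ligand (2.47). Ihh, the ligand of the growth plate, had none. The intervals of the hypertrophy and Wnt lists included the share of all genes, and the lower bounds of the other 2 lay just above it. Median lengths were 65.1 kb for the Hedgehog genes and 12.9 kb for the TGF-beta and BMP genes, against 17.5 kb for all. All 3 Hedgehog genes with a peak were among the 8 over 50 kb (37.5%, against 18.0% of all genes of that length). Of the 5 TGF-beta and BMP genes over 50 kb 0 had one. Peaks in Ezh2-cKO, Utx-cKO and Jmjd3-cKO alone lay at 2, 11 and 1 of the Hedgehog genes (13.3%, 73.3% and 6.67%). For the TGF-beta and BMP genes the numbers were 1, 8 and 0 (4%, 32% and 0%). Over all protein-coding genes the shares were 10.5%, 30.03% and 4.66%.

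Of 11 genes for PRC2 and the demethylases 2 had one (18.2%, 5.14 to 47.7%), Ezh1 (2.73) and Aebp2, an accessory subunit (2.51), both inside the gene. Ezh2 and Kdm6b had none. Among 9 cell cycle inhibitors Rb1 had one (2.77), and among 22 genes of matrix degradation and inflammation Timp3, a metalloproteinase inhibitor, had one (2.35). Of the marker lists of other cells, Pax7 of muscle (2.37) and Pparg of fat (2.75) had one, and 0 of 11 endothelial and 0 of 13 blood genes did. Among 14 housekeeping genes, Hnrnpk had a peak 120 bp from a knockout peak (2.68). Apart from the chondrocyte list, each list with a peak had it in 1 to 4 genes, and most of these peaks lay inside the gene.

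By symbol, 32 gene families were counted, of which 12 had no wild-type-alone peak over or within 2 kb of any gene. Of 42 collagen genes 6 had one (14.3%, 6.72 to 27.8%), namely Col5a2 with 3 (the strongest 3.42), Col9a1, Col11a1, Col1a2 (2.69), Col6a5 (2.40) and Col27a1. Of 59 genes of the ADAM and ADAMTS families, which include metalloproteinases of the matrix, 8 had one (13.6%, 7.03 to 24.5%), led by Adam9 (3.18), Adam23 (2.80) and Adamtsl3 with 3 (up to 2.79). Their median lengths were 110 and 36.4 kb, and the shares among genes over 50 kb were 5 of 27 and 8 of 26, beside 18.0% of all genes of that length. Peaks in Ezh2-cKO, Utx-cKO and Jmjd3-cKO alone lay at 11, 24 and 3 of the collagen genes (26.2%, 57.1% and 7.14%). For the ADAM and ADAMTS genes the numbers were 4, 21 and 2 (6.78%, 35.6% and 3.39%). Over all protein-coding genes the shares were 10.5%, 30.03% and 4.66%. Potassium channels had 7 of 92 (7.61%, 3.73 to 14.9%), near the 6.01% of all genes, led by Kcnip4 (3.57) and Kcnj6 (3.27).

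Among large families, zinc finger genes with a Zfp symbol had 8 of 388 (2.06%, 1.05 to 4.02%), although 330 had a wild-type peak at an end. Odorant receptors had 2 of 1104 (0.181%), Olfr1427 (3.20) and Olfr159 (2.77), both at a gene end. Vomeronasal receptors had 0 of 354 (upper bound 1.07%) and ribosomal protein genes 0 of 91 (4.05%). Odorant and vomeronasal receptors and ribosomal protein genes are mostly short, and odorant and vomeronasal receptors seldom had any wild-type peak. Of 39 Hox genes 2 had one (5.13%), Hoxb2 and Hoxa3 (3.02). Of 67 protocadherin genes 1 had one (1.49%, 0.264 to 7.98%), Pcdh9 (up to 3.46). A peak in Ezh2-cKO alone lay at 22 of them (32.8%, against 10.5% of all genes). One in Utx-cKO alone lay at 31 (46.3% against 30.03%), and one in Jmjd3-cKO alone at 4 (5.97% against 4.66%). A peak over overlapping genes counts for each gene, so these are not numbers of separate peaks. Of 20 semaphorin genes 0 had one (upper bound 16.1%). The intervals of the Hox, protocadherin and semaphorin families included the share of all genes.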

How the data were processed

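The data are 4 peak lists, 1 per genotype, made from a ChIP library and its own input without pooling. The tools named in the submitters' processing notes are ChIPseeker, MACS2, Bowtie2, deepTools 2.4.1, HOMER 4.10 and FastQC 0.11.5. Broad peaks were called with MACS 2.1.2 at a q of 0.05, per the file headers, with at most 1 duplicate kept per position and the larger library scaled to the smaller. The deposited columns hold the pileup (a coverage signal), −log10 p, −log10 q and the fold enrichment (a ratio over local input). Because the threshold depends on depth, a weak peak can fall on either side of it when the mark is the same. Wild type had 29222251 ChIP fragments, Ezh2-cKO 34786292, Utx-cKO 34359111 and Jmjd3-cKO 25655346. Whether depth has a part in the wild-type-alone peaks was not tested.

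For the genome build, the entry is: not given in the sources used here. The RefSeq tables (GRCm38.p6) were tested for fit: wild-type peaks touched 13723 of 31396 promoter windows, against 1192 and 1190 after shifts of 20 kb. The gene table has no strand, so both gene ends were used, and exons and introns were not told apart. The promoter table covers 16457 of 20665 protein-coding autosomal genes. All 247 entries of the 14 gene lists matched a symbol, and 6 of them are on X or Y and were left out.

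The members, lists and families were chosen with earlier results of these data known. The regions named are the 12 strongest and 6 longest peaks, the 6 largest clusters (ties by summed length), the 6 peaks on either side of the overlap rule and, per list or family, up to 4 genes by fold enrichment. Other genes named were chosen after their values were seen. The overlap step was tested on 1995 simulated peaks, and it recovered 100% of 300 seeded as absent. The simulated peaks stood too far apart for a neighbour to overlap a seeded one. The result thus checks the computation only, not the crowding of peaks in the real lists. Computation ran in Python 3.11.15 with pandas 2.3.3, scipy 1.17.1, numpy 2.4.6 and, for figures, matplotlib 3.10.9. No test was run, and p-values are absent.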

Additional observations from a re-analysis of the deposited data

Results flagged for a closer look

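On the sex chromosomes, which the description above leaves out, 21 of 564 wild-type peaks on X (3.72%, 2.45 to 5.62%) and 4 of 6 on Y (66.7%, 29.9993 to 90.3%) overlapped no knockout peak. Neither share was tested against that of the autosomes, and the interval for Y is wide because few wild-type peaks lay there. On Y the lists held 0, 4 and 2 peaks in the knockouts of Ezh2, Utx and Jmjd3, and the strongest wild-type Y peak lay at Kdm5d (fold enrichment 4.41). The number of male and female animals is not given in the labels, so the Y counts were not compared between genotypes.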

How the results depend on the processing

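The number of wild-type-alone peaks depended on the definition. It was 2276 as reported, 1235 with no knockout peak allowed within 5 kb, 214 at a q of 0.001 or less and 3 at a fold enrichment of 4 or more. It was 3835 with each knockout list cut to 27013 peaks and 4023 without the Utx-cKO list. With the other settings (50% overlap, a 1 kb margin, merged peaks, or the Ezh2-cKO or Jmjd3-cKO list left out) it stayed between 1896 and 2803. The share at gene ends was 5.32%, and it was 2.504% with a window of 1 kb, 15.0% with 5 kb and 11.7% with every annotated gene. It was 4.05% with no knockout peak within 5 kb, a setting chosen after seeing the data. The clustered share was 12.3%, and it was 6.33% with gaps of at most 50 kb, 25.6% with 200 kb and 7.65% with peaks within 3 kb merged. The median length of 375 bp became 318.5 bp at a q of 0.001 or less. The 145 genes with a peak at an end became 444 with a window of 5 kb, 1241 with a peak anywhere over the gene and 56 with no knockout peak within 5 kb. Beyond the settings' own construction, the cause of these changes was not tested. No paired analysis was possible because each genotype has 1 ChIP library.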
